A study of Homo sapiens with 3 samples.

Results

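Solute carriers (SLC genes) are the largest group of human membrane transport proteins. The 746 skipped exons described here were all those listed under a gene symbol that begins with SLC and a digit, out of 39434 exons in all. They came from 212 genes of 43 numbered SLC families, out of 11222 gene symbols in both tables. The RS2 table held 766 rows for 641 of these exons, and the RS3 table held 795 rows for 654 of them. Both tables listed 549 of the exons. Each row is 1 exon-skipping event, and an exon can have several rows. By name, 204 of the 212 symbols are carriers. The other 8 are SLC2A4RG, SLC4A1AP, SLC7A6OS, SLC9A3R1, SLC9A3R2, SLC22A18AS, SLC2A1-AS1 and SLC25A3P1, which are regulators or binding partners of a carrier, neighbouring or antisense genes, or a pseudogene.

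The cells were BJ, an established line of human foreskin fibroblasts, in which viral OCT4, SOX2, KLF4 and MYC had been expressed for 8 days to start reprogramming. All 3 libraries carried these factors and an siRNA: 1 library (genotype WT) a non-targeting siRNA, 1 (SMAD3 Knock-down) an siRNA against the TGF-beta signal transducer SMAD3, and 1 (SFRS11 Knock-down) an siRNA against the splicing factor SFRS11. Each group was 1 library, so no replicate check is possible, and every p-value and false discovery rate (FDR) below compares 2 libraries and not 2 conditions. The codes RS2 and RS3, and the comparator library that both tables share, are tied to no siRNA by the labels and are therefore kept as codes. Every difference is the inclusion level in RS2 or RS3 minus that in the comparator. An inclusion level is the estimated share of transcripts that keep the exon, so the difference can run from -1 to 1. An event was called at an FDR under 0.05 and an absolute difference of at least 0.1. The tables hold no read counts, so depth is unknown. They hold no expression levels either, so neither the fibroblast identity nor the knockdowns could be checked with them.

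Most solute carriers are chains of membrane-spanning helices that alternate between facing either side of a membrane. Those of the cell surface bring in amino acids, sugars, ions and vitamins. Others sit in lysosomes, the Golgi or the inner mitochondrial membrane and move zinc, nucleosides, nucleotide sugars or metabolites between compartments. A skipped coding exon whose length is a multiple of 3 keeps the reading frame and can take a stretch out of such a helix or loop, while another length shifts the frame.

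The sequences of called exons show which bases a transcript lacks when the exon is skipped, and protein was not measured. Of the 7 called SLC exons, 5 could be matched to an exon of GENCODE release 29 that is coding over its whole length, and these are printed from its transcripts, 5′ to 3′ on the transcribed strand, with the listed hg19 position. SLC41A3 belongs to a family of magnesium transporters. Its exon was listed in 2 forms that share their first 108 bases. In the longer form the 45 bases that only it holds are in capitals, and they begin with the letters gtaagt, which the shorter form leaves in the intron.

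SLC41A3 exon of 153 bases, chr3:125769741-125769893, minus strand: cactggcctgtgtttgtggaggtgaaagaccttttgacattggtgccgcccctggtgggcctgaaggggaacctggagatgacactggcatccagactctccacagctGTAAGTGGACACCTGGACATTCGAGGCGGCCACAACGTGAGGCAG
SLC41A3 exon of 108 bases, chr3:125769786-125769893, minus strand: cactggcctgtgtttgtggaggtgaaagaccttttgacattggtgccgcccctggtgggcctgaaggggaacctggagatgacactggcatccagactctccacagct
SLC30A5 exon of 123 bases, chr5:68396634-68396756, plus strand: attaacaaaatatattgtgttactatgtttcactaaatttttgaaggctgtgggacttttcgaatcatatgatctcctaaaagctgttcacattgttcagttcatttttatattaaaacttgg
SLC15A3 exon of 169 bases, chr11:60708594-60708762, minus strand: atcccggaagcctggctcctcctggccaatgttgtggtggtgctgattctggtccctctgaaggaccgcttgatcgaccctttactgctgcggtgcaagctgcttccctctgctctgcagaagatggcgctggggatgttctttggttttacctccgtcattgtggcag
SLC25A12 exon of 91 bases, chr2:172644081-172644171, minus strand: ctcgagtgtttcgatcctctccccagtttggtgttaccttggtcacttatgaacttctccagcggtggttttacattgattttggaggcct

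Both SLC41A3 forms and the SLC30A5 exon have lengths that are multiples of 3, so their loss keeps the frame. The SLC15A3 and SLC25A12 exons leave a remainder of 1 base. Taken out of its transcript, the SLC15A3 exon gave a first in-frame stop codon after 87 codons, against 155 codons from the end of the exon to the usual stop. For SLC25A12 the stop came after 78 codons, against 66, so that the shifted frame ran past the usual stop. The SLC30A5 exon was the poorest in G and C, at 28.5%, and the longer SLC41A3 form the richest, at 58.2%. Of 17 annotated SLC41A3 transcripts that span the site, 12 hold the shorter form, 2 the longer and 3 neither. The SLC30A5 exon was in 3 of 5 annotated transcripts and absent from 2. The SLC25A12 exon was in all 3 that span it.

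In the RS3 table, 7 SLC events in 6 genes were called, 6 with lower inclusion and 1 with higher. They were 0.881% of the SLC events, beside 0.967% of all events in that table, so the share of called SLC events was close to the background. Lower and higher calls made up 0.736% and 0.23% of all events. By gene, 6 of 198 SLC symbols (3.03%) had a called event, beside 3.06% of all symbols. The carriers concerned handle magnesium, zinc, peptides, hexoses, nucleosides and mitochondrial aspartate. In RS2, by the same deposited FDR, 0 SLC events were called, beside 0.0712% of all events and 0.238% of all gene symbols, while 39 SLC events had an unadjusted p under 0.05.

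**Figure D1:**
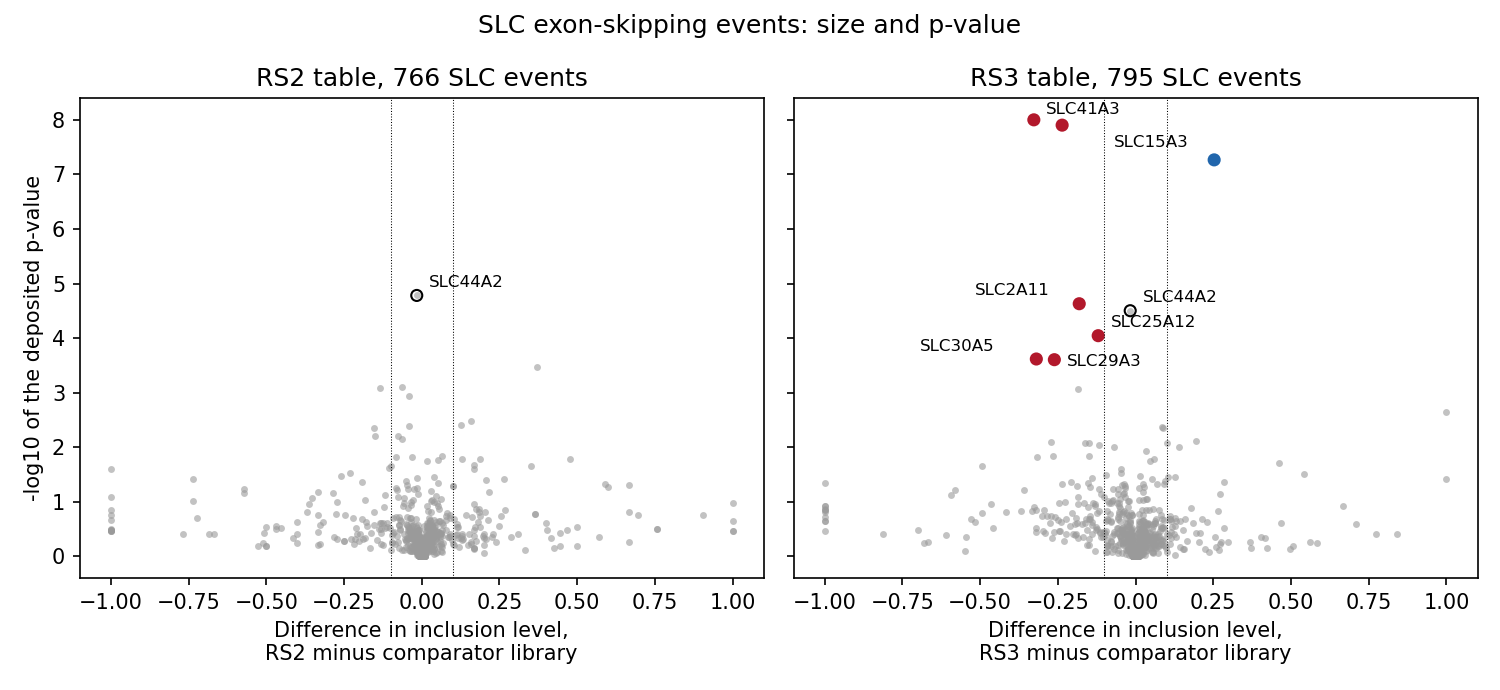
Each point is 1 SLC event, with the difference in inclusion level on the x axis and -log10 of the deposited p-value on the y axis, for the RS2 table (766 events, left) and the RS3 table (795 events, right). Filled red and blue points are called events with lower and higher inclusion, open circles are SLC44A2, whose FDR is under 0.05 with a difference under 0.1 in size, and dotted lines mark differences of -0.1 and 0.1. The 7 called events are all in RS3, and 6 of them lie left of -0.1.

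Metal carriers held 3 of the called events. Inclusion of the 153-base SLC41A3 exon fell by 0.327 in RS3 in the authors' deposited table (FDR 3.29e-06), and it differed by -0.043 in RS2 (FDR 1). The 108-base form fell by 0.236 in RS3 in the authors' deposited table (FDR 3.99e-06) and differed by -0.021 in RS2 (FDR 1). The 2 forms share 108 bases and can share reads, so they are not separate observations. Other SLC41A3 exons were close to the comparator: the 4 listed in RS3 ranged from -0.038 to 0.014 in the authors' deposited table, and the 2 listed in RS2 were 0.001 and 0.007.

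SLC30A5 is ZnT5, which moves zinc into the early secretory pathway. Its 123-base exon fell by 0.319 in RS3 in the authors' deposited table (FDR 0.0193). In the authors' deposited table the RS2 value was -0.121 (p = 0.124, FDR 1), which was not called. Each table listed 1 more exon of the gene, not the same one: in the authors' deposited table the RS3 one (130 bases) was at -0.224 and the RS2 one (129 bases) at -0.333, with p = 0.390 and 0.174.

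The single SLC gain was in SLC15A3, a proton-coupled carrier of histidine and small peptides in lysosomes. Inclusion of its 169-base exon rose by 0.253 in RS3 in the authors' deposited table (FDR 1.52e-05). This exon had 2 rows in each table. The second RS3 row was 0.017 in the authors' deposited table (FDR 1), so only 1 of the rows shows the gain. In RS2 the rows were 0.127 (p = 0.00383, FDR 0.503) and 0.018 (FDR 1) in the authors' deposited table. Both tables thus held 1 row above 0.1 and 1 row near 0. The rows lack the flanking exons, so which RS2 row matches which RS3 row is unknown.

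SLC2A11 is GLUT11, a facilitative hexose carrier. A 485-base exon on chromosome 22 (24219572 to 24220056) fell by 0.181 in RS3 in the authors' deposited table (FDR 0.00298), and differed by -0.030 in RS2 (FDR 1). The exon is coding only in part in the annotated transcript that holds it. A 149-base form with the same end (24219908 to 24220056), coding over its whole length, differed by -0.150 in RS3 in the authors' deposited table and missed the call (p = 0.0143, FDR 0.347). In RS2 this form had a difference of -0.034 (FDR 1) in the authors' deposited table.

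SLC29A3 is ENT3, a nucleoside carrier of lysosomes. It had a single listed exon, of 83 bases on chromosome 10 (73103966 to 73104048), which fell by 0.261 in RS3 in the authors' deposited table (FDR 0.0197). Its RS2 value in the authors' deposited table was -0.022 (FDR 1). SLC25A12 is aralar, which exchanges aspartate for glutamate across the inner mitochondrial membrane. Its 91-base exon fell by 0.120 in RS3 in the authors' deposited table (FDR 0.009) and differed by -0.036 in RS2 (p = 0.0985, FDR 1). In the authors' deposited table the other SLC25A12 exons listed in RS3 ranged from -0.025 to 0.017. Those listed in RS2 ranged from -1 to 0.017 in the authors' deposited table and were not all the same exons. The exon at -1 (172712344 to 172712459) was listed in RS2 only, and the one at -0.025 (172669849 to 172670007) in RS3 only. None of these other exons was called or passed the unadjusted limit of 0.05.

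The RS2 rows of the same 7 exons thus held 0 calls. Both differences use the same comparator library, so they are not independent, and RS2 was not tested against RS3.

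**Figure D2:**
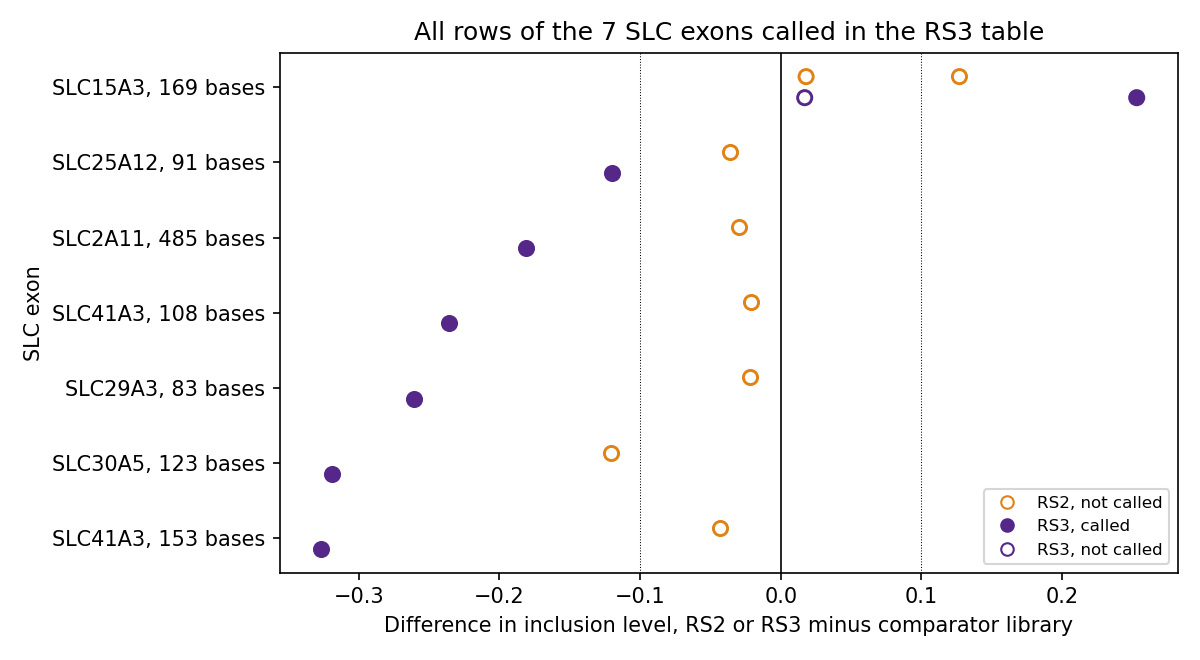
The x axis is the difference in inclusion level, RS2 or RS3 minus comparator library, and each line of the y axis is 1 of the 7 SLC exons called in the RS3 table; orange circles are RS2 rows, purple circles RS3 rows, and filled circles are called. RS3 values run from -0.327 (SLC41A3, 153 bases) to 0.253 (SLC15A3), while the RS2 values of the 6 exons with lower inclusion lie between -0.121 and -0.021.

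SLC44A2, a choline carrier-like protein, had the smallest p among SLC events in RS2. A 125-base exon on chromosome 19 (10753573 to 10753697) had, in the authors' deposited table, an FDR of 0.0146 in RS2 and 0.00379 in RS3. The differences were only -0.016 and -0.017 in the authors' deposited table, under the 0.1 needed for a call. The exon is in 1 of 7 annotated transcripts that span it, and 5 of the 7 lack any part of it. Among SLC events in RS2 this was the only one with an FDR under 0.05.

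At an unadjusted p under 0.05, 39 SLC events passed in RS2 (5.09%, beside 4.52% of all events) and 49 in RS3 (6.16%, beside 7.61% of all events). Of these, 21 had lower and 18 higher inclusion in RS2, beside 1016 lower and 823 higher over all genes. In RS3, 27 SLC events had lower and 22 higher inclusion, beside 2211 lower and 1026 higher over all genes. Among the uncalled RS2 events the smallest p after SLC44A2 was that of a Golgi carrier. SLC35A1, which carries CMP-sialic acid into the Golgi, had a 160-base exon at 0.371 in RS2 in the authors' deposited table (p = 0.000332, FDR 0.128). Its second RS2 row was -0.250 and its RS3 row 0.031 in the authors' deposited table, both with an FDR of 1.

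Further down the RS2 list, 2 forms of an exon of the zinc importer gene SLC39A3 differed by -0.065 (253 bases) and -0.042 (332 bases) in the authors' deposited table, with FDR values of 0.2001 and 0.250. In RS3 they were at -0.018 and -0.012 in the authors' deposited table. SLC25A29, a mitochondrial carrier of basic amino acids, had 2 overlapping exon forms at -0.134 (368 bases) and -0.150 (72 bases) in RS2 in the authors' deposited table, against -0.042 and -0.050 in RS3. SLC3A2, the CD98 heavy chain that partners amino acid exchangers, had a 93-base exon with rows of 0.157 (FDR 0.463) and 0.013 in RS2 in the authors' deposited table. Its RS3 rows were -0.038 and 0.033 in the authors' deposited table. The taurine carrier gene SLC6A6 had a 125-base exon at -0.040 in RS2 (FDR 0.522) and -0.024 in RS3 in the authors' deposited table.

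In RS3 the nearest uncalled event was in SLC4A7, the sodium bicarbonate cotransporter NBCn1. Its 175-base exon on chromosome 3 (27450847 to 27451021) differed in the authors' deposited table by -0.185 in RS3 (FDR 0.051, against a limit of 0.05) and by -0.078 in RS2 (p = 0.0618). SLC37A4, which carries glucose 6-phosphate into the endoplasmic reticulum, had 2 overlapping RS3 forms in the authors' deposited table, at 0.085 (86 bases, FDR 0.164) and 0.193 (183 bases, FDR 0.241). The 86-base form is wholly coding, while the 183-base form was matched only in noncoding transcripts, in 1 of 17 that span it. In RS2 these forms were at -0.018 and -0.070 in the authors' deposited table, on the other side of the comparator, with an FDR of 1 each. The RS3 value of SLC24A6, a mitochondrial sodium and calcium exchanger, was 0.087 (FDR 0.170) in the authors' deposited table, and its RS2 value was 0.052.

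Of the uncalled RS3 events with the smallest p, 4 more were in other carriers or beside one. SLC43A1, a facilitative carrier of large neutral amino acids, had rows of -0.272 (FDR 0.247), -0.271 (FDR 0.979) and 0.057 (FDR 1) for 1 exon of 93 bases in RS3 in the authors' deposited table. In RS2 its rows were 0.188 and -0.018 in the authors' deposited table. SLC25A26, which brings S-adenosylmethionine into mitochondria, had an exon at -0.162 in RS3 (FDR 0.251) in the authors' deposited table. The fatty acid transport gene SLC27A1 stood at 0.102 in RS3 (FDR 0.254) and 0.023 in RS2 in the authors' deposited table. The opposite-strand gene SLC22A18AS had a 395-base exon at 1 in RS3 (p = 0.00229, FDR 0.107) in the authors' deposited table. It overlaps the carrier gene's locus on the other strand, and no source used here says whether strand was used in counting.

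The exons named for an unadjusted p under 0.05 in both comparisons were those of SLC15A3 and SLC44A2, given above, 1 of SLC2A8 and 2 of SLC7A6. The comparisons share a library, so the values are given side by side only. SLC2A8 is GLUT8, an intracellular hexose carrier. Its 197-base exon on chromosome 9 (130164836 to 130165032) had rows of -0.155 (p = 0.00448) and -0.020 in RS2 in the authors' deposited table. In RS3 its rows were -0.149 (p = 0.00819) and -0.025 in the authors' deposited table. SLC7A6 is y+LAT2, an amino acid exchanger that pairs with SLC3A2. Its 129-base untranslated exon had 4 rows per table, from 0.001 to 0.350 in RS2 and from -0.033 to 0.127 in RS3 in the authors' deposited table. A 559-base SLC7A6 exon had rows of 0.129 and 0.015 in RS2, and of 0.094 and 0.016 in RS3, in the authors' deposited table.

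SLC families were then grouped by their number into 8 roles, with SLC14A2, a urea transporter gene with 5 exons and 0 calls, left over. The 8 symbols that are not carriers stayed in the group of their number, so the group counts include them. Counts of calls per group are small and stand beside a background of 0.967% of all RS3 events and 3.06% of all RS3 gene symbols. Counts at p under 0.05 stand beside 4.52% of all RS2 events, 1016 lower and 823 higher. For RS3 they stand beside 7.61% of all events, 2211 lower and 1026 higher. Several events of a group can be of 1 gene or of overlapping forms of 1 exon. Amino acid and neurotransmitter carriers were the largest group, with 37 genes and 175 events in RS3. They had 0 called events in either table, and at p under 0.05 there were 9 RS3 events (5.14%), 2 lower and 7 higher. Of the 7 higher events, 3 were of SLC7A6. SLC3A2 had the most listed exons of all, 14. Inorganic ion carriers likewise had 0 called events among 136 in RS3. At p under 0.05 they had 9 RS2 events (6.57%), 7 lower and 2 higher. In RS3 they had 5 such events (3.68%), 3 lower and 2 higher.

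Metal carriers had 3 called events among 51, in 2 of 18 genes in RS3, and 2 of the 3 are overlapping forms of 1 SLC41A3 exon. The 4 metal events (7.84%) with p under 0.05 in RS3, these forms included, had lower inclusion, as did 2211 of 3237 such events over all genes. The one not called was a 149-base exon of SLC11A2, the iron importer DMT1, at -0.265 (FDR 0.347) in the authors' deposited table. Metal carriers had 2 RS2 events (4.08%) with p under 0.05, both of SLC39A3.

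Mitochondrial carriers of the SLC25 family had 1 called event in 33 genes in RS3, in SLC25A12. At p under 0.05 they had 7 RS3 events (4.64%), 6 lower and 1 higher, and 9 RS2 events (6.38%), 5 lower and 4 higher. A 98-base exon of SLC25A40, at -0.494 (p = 0.022, FDR 0.438), had the largest RS3 difference of these in the authors' deposited table. In the authors' deposited table SLC25A23, a calcium-regulated ATP and phosphate carrier, stood at 0.266 for a 98-base exon in RS2 (p = 0.0383, FDR 1). That exon had 2 RS2 rows, and the other did not reach p under 0.05. A 108-base exon of SLC25A23 was at -0.049 in RS2 (p = 0.0415) in the authors' deposited table.

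Sugar carriers had 1 called event in 17 genes in RS3, in SLC2A11, and 8 events (9.41%) with p under 0.05, 5 lower and 3 higher. The 3 higher events were all of SLC37A4, its overlapping forms included. Of the 5 lower events, 2 were the SLC2A11 forms that share an end. Carriers of organic acids, peptides and organic ions had 1 call in 28 genes, in SLC15A3, and 8 events (8.99%) with p under 0.05, 2 lower and 6 higher. Those 6 include the event of the opposite-strand gene SLC22A18AS, which is not a carrier. The vitamin, heme, choline and nucleoside group had 1 call in 14 genes, in SLC29A3, and 5 such events (10%), 4 lower and 1 higher. Nucleotide sugar carriers of the SLC35 family had 0 calls in 21 genes and 3 such events (5.88%). In RS2 these 4 groups had 5, 4, 1 and 4 events with p under 0.05 (6.17%, 4.17%, 2.22% and 8%). Leaving SLC14A2 aside, the lowest and highest group medians were -0.0035 and 0.006 for RS2, and -0.005 and 0.004 for RS3. Medians say little of events that go both ways, and differences between groups were not tested.

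**Figure D3:**
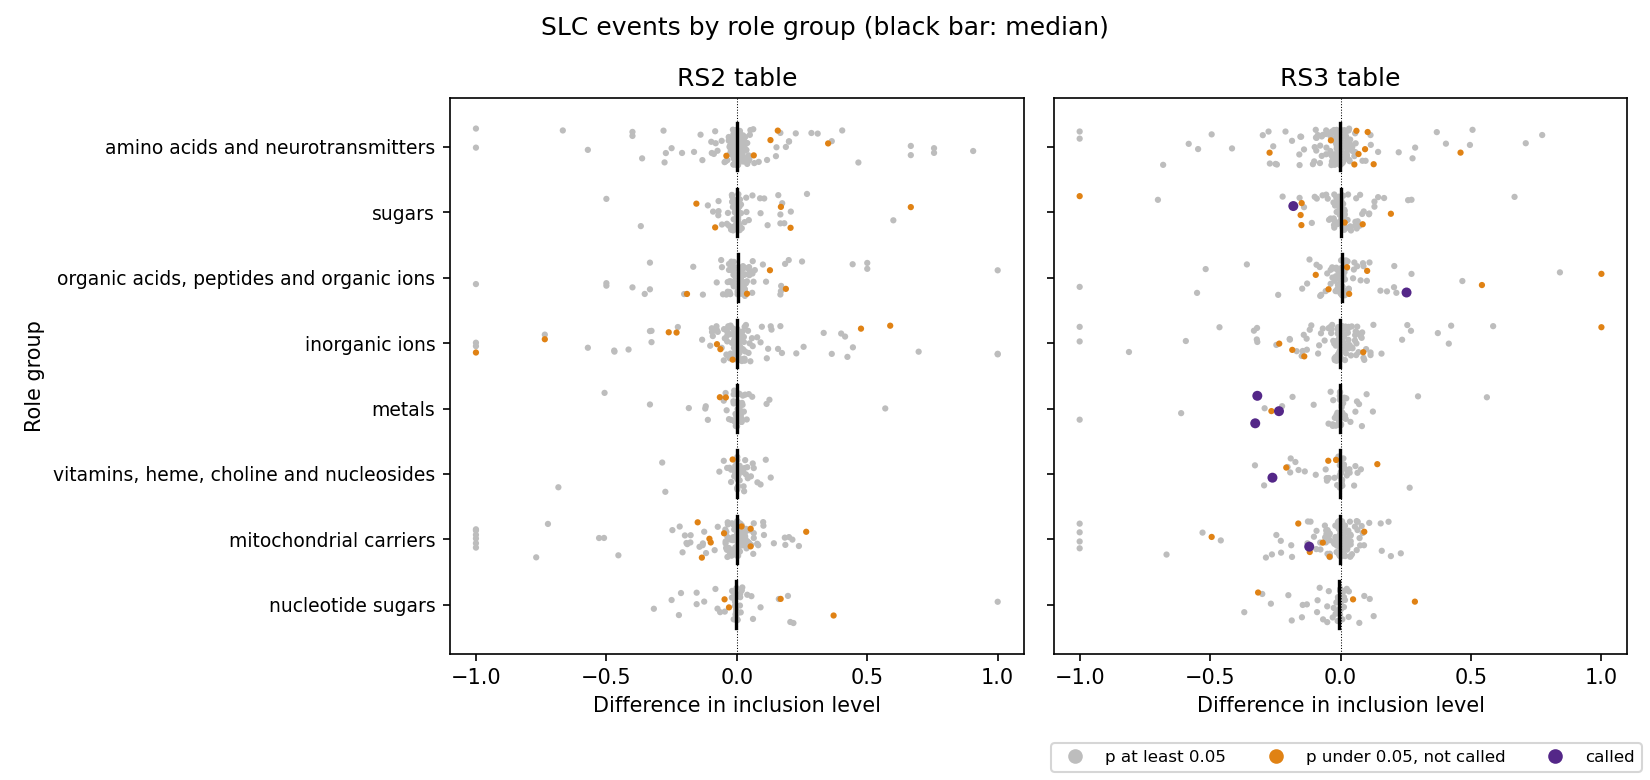
Each point is 1 SLC event, with its difference in inclusion level on the x axis and its role group on the y axis, for RS2 (left) and RS3 (right); vertical scatter within a group has no meaning. Grey points have p of at least 0.05, orange points p under 0.05 without a call, purple points are called, and black bars are group medians (SLC14A2 is not drawn). All medians lie near 0, and the metal group holds 3 of the 7 calls.

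The genes with the most listed exons in each group show the range of values within 1 gene, taken over its rows in the authors' deposited table. SLC35A2, which carries UDP-galactose into the Golgi, had 4 exons with RS2 values of -0.004 to 0.012 and RS3 values of -0.002 to 0.014. The 9 RS3 exons of SLC44A2 ranged from -0.017 to 0.005, while its 10 RS2 exons reached down to -0.684. SLC26A11, a sulfate and anion carrier with 13 exons, ranged from -0.024 to 0.043 in RS3 and from -0.327 to 0.027 in RS2. SLC22A17, a receptor for lipocalin 2, had 8 exons, with RS3 values of -0.019 to 0.111 and RS2 values of -0.333 to 0.1. SLC37A3 had 12 exons, with values from -0.070 to 0.105 in RS2 and from -0.222 to 0.110 in RS3. SLC3A2 ranged from -0.016 to 0.157 in RS2 and from -0.276 to 0.037 in RS3, and SLC14A2 from -0.182 to 0.130 and from -0.167 to 0.128. For SLC11A2 and for SLC25A39, a mitochondrial glutathione carrier, the RS3 ranges began at -1 and ended at 0.063 and 0.012. None of these genes had a called event.

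Differences of at least 0.5 in size made up 5.48% of SLC events in RS2 and 4.03% in RS3, beside 3.61% and 3.45% of all events. Of the 42 such SLC events in RS2 and 32 in RS3, 4 in each table had p under 0.05 and 0 were called. Over all genes, 0 of 1470 events of that size were called in RS2 and 15 of 1466 in RS3, so that the SLC counts of calls were near the background. A complete switch, with a difference of 1 in size, was listed for 16 SLC events in RS2 (12 at -1 and 4 at 1) and 13 in RS3 (11 at -1 and 2 at 1). These were 16 of 766 and 13 of 795 SLC events, beside 442 of 40702 and 374 of 42518 over all genes. The SLC share was thus the larger in both comparisons, and the difference was not tested. The comparisons share the comparator library and list some of the same exons at -1, so they are not independent. Of the SLC switches, SLC26A10 in RS2 (p = 0.0245) and SLC22A18AS, SLC4A8 and SLC2A5 in RS3 (p = 0.00229, 0.0388 and 0.0449) had p under 0.05 in the authors' deposited table. SLC4A8 is a sodium-driven bicarbonate exchanger and SLC2A5 the fructose carrier GLUT5. The SLC4A8 exon was matched only in noncoding transcripts.

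Events tied at -1 or 1 have no order, and those described next are examples taken in order of gene identifier. SLC25A36, a mitochondrial carrier of pyrimidine nucleotides, had 3 exons at -1 in RS3 in the authors' deposited table (p = 0.120, 0.118 and 0.142), of which the last 2 overlap. In RS2 the 3 exons were at -0.528, -1 and -1 in the authors' deposited table (p = 0.643, 0.330 and 0.336). SLC25A39 had an untranslated exon at -1 in both (p = 0.339 each) and a coding exon at -1 in RS2 (p = 0.0819) in the authors' deposited table, whose second row was -0.002. SLC25A14, SLC4A8 and SLC6A12 each had an RS2 exon at -1 in the authors' deposited table, with p of 0.219, 0.333 and 0.336. Those of SLC25A14 and SLC4A8 were matched only in noncoding transcripts. RS2 values of 1 were listed in the authors' deposited table for SLC12A8 (p = 0.103), SLC22A14 (p = 0.225), SLC26A9 (p = 0.336) and SLC35E4 (p = 0.339). SLC38A11 followed at 0.906 in RS2 and -0.094 in RS3 in the authors' deposited table (p = 0.170 and 0.835).

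Extreme RS3 values without a small p were further listed in the authors' deposited table for SLC16A8 (0.841, p = 0.395), a lactate carrier. SLC6A3, the dopamine carrier, was at 0.710 in RS3 and 0.667 in RS2 in the authors' deposited table (p = 0.255 and 0.153). SLC38A9, the lysosomal arginine sensor, had RS3 rows of 0.773, 0.023 and 0 for 1 untranslated exon in the authors' deposited table. A 39-base exon of SLC11A2 (p = 0.141) and a 17-base exon of SLC38A7 (p = 0.189) were both listed at -1 for RS3 in the authors' deposited table. Another SLC38A7 row for the same exon was at 0.002 in the authors' deposited table. Values of this size with p over 0.1 were not distinguishable from the comparator at the depth of these libraries, which is unknown.

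Over all SLC events the RS2 median was a difference of 0.001, with quartiles of -0.022 and 0.026. The RS3 median was -0.001, with quartiles of -0.0365 and 0.0215. Over all events the medians were 0 and -0.001. Of the SLC events, 23.9% in RS2 and 23.3% in RS3 differed by at least 0.1, beside 19.2% and 21.2% of all events. Means were -0.00965 (RS2) and -0.0230 (RS3), beside 0.00118 and -0.0112 over all events. In RS2 the mean and the median of the SLC events thus have opposite signs.

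**Figure D4:**
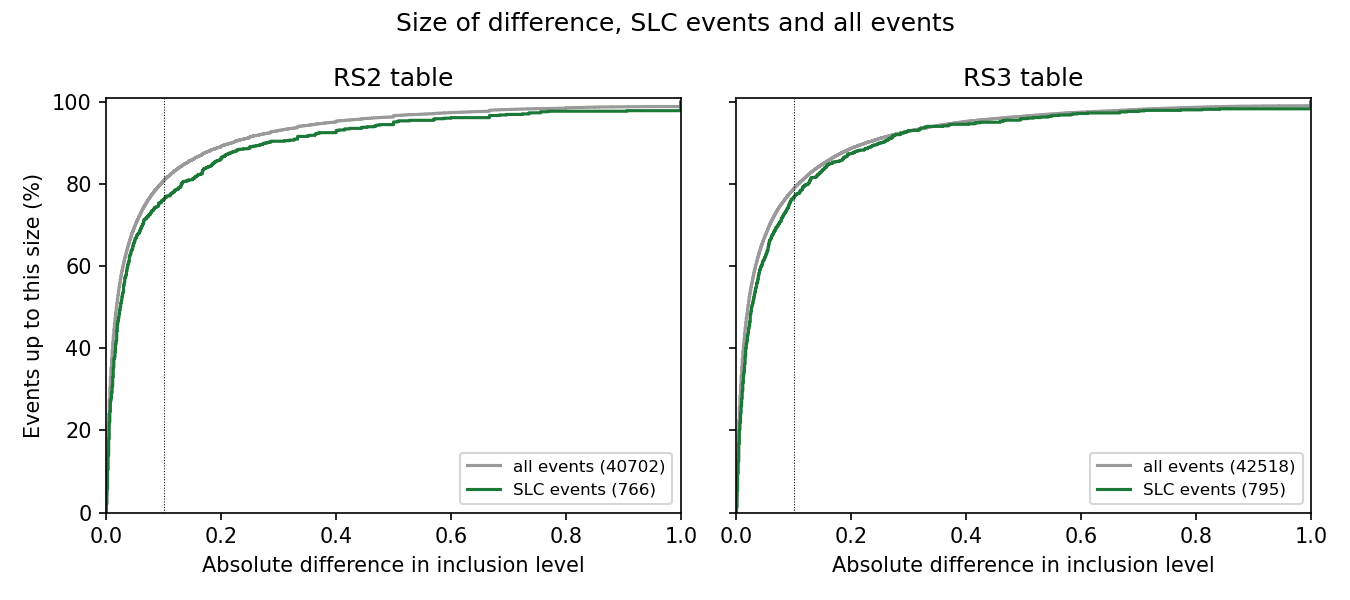
The x axis is the absolute difference in inclusion level and the y axis the percentage of events up to that size, for SLC events (green) and all events (grey) in RS2 (left) and RS3 (right); the dotted line marks 0.1. The green line lies below the grey one at 0.1 in both tables, since 23.9% and 23.3% of SLC events were at least that large, beside 19.2% and 21.2% of all events.

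An exon in several rows gives a view of the spread within 1 pair of libraries. In RS2 100 SLC exons had several rows (15.6%, at most 5), and in RS3 112 (17.1%). The median range over the rows of 1 SLC exon was 0.0675 in RS2 and 0.057 in RS3, beside 0.048 and 0.045 over all such exons. Rows that differed by at least 0.1 were found for 40 SLC exons in RS2 (40%) and 40 in RS3 (35.7%), beside 34.7% and 33.7% of all such exons. Rows of both signs were listed for 46 of 100 SLC exons in RS2 and 62 of 112 in RS3. Over all genes it was 2654 of 5354 and 2664 of 5724. Of the 7 called SLC exons only that of SLC15A3 had several rows.

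SLC exons resembled the other listed exons in length and place. Their median length was 126 bases (quartiles 93 and 170), beside 120 over all exons, and 291 of 746 had a length that is a multiple of 3, beside 41.1% of all exons. Of the 7 called SLC exons, both SLC41A3 forms and the SLC30A5 exon had such a length. Of the SLC exons, 684 (91.7%) could be matched to GENCODE release 29. Among the matched exons 72.4% were coding over their whole length, 11.4% in part, 9.65% lay in untranslated parts and 6.58% were only in noncoding transcripts, beside 70.3%, 12.3%, 8.92% and 8.50% of all matched exons. Of the 495 wholly coding SLC exons 203 keep the frame when skipped, beside 11123 of 24715 over all genes. An annotated transcript that lacks the exon was found for 56.9% of matched SLC exons, beside 55.8% of all.

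Transporters outside the SLC names were set beside the carriers, from a list of pumps, ABC transporters and carriers under other names. In RS3, 4 of 459 events were called (0.871%), 3 lower and 1 higher, in 4 genes, beside 0.967% of all RS3 events. In RS2 it was 0 of 430, beside 0.0712% of all events. Inclusion fell in RS3 in the authors' deposited table for ATP2C1 (-0.329, FDR listed as 0), the calcium and manganese pump of the Golgi. It also fell for the phospholipid flippase gene ATP11A (-0.285, FDR 3.38e-06) and for ATP13A3 (-0.175, FDR 0.0183), a polyamine transporter gene, in the authors' deposited table. ABCB6, a porphyrin transporter gene, rose by 0.141 in RS3 in the authors' deposited table (FDR 0.0079). At p under 0.05, 19 of these events passed in RS2 (4.42%, beside 4.52% of all) and 26 in RS3 (5.66%, beside 7.61% of all).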

How the data were processed

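Inclusion of skipped exons was compared between 3 RNA-seq libraries of reprogramming BJ fibroblasts. The submitters' processing notes name STAR, FastQC and hg19, without versions, and for the program that called the events no name was found in them. Per the file headers, the 2 tables the authors deposited give, for every event, the inclusion difference with its p-value and FDR. The 4 columns of inclusion level per library match no label and entered no result. They were looked at once, outside the computations, to settle the sign: the second listed level is subtracted from the first. Starts were converted to count from 1.

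Members were taken by symbol, the call needed the authors' deposited FDR under 0.05 and an absolute difference of at least 0.1, and exons were matched between tables on gene, strand, start and end. Role groups follow the family number, so that a family's odd member stays in its group (SLC5A6, a vitamin carrier, is with the sugars). The members, lists and tests were chosen with earlier results of these data known. Named exons were those called, per table the 10 with the smallest p without a call and 5 at each extreme (ties at -1 or 1, which numbered more than 5, were broken by gene identifier), those with p under 0.05 in both tables, and per role the gene with the most exons. Other genes given as examples of a role group, and single events with a complete switch, were chosen after their values were seen.

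The annotation at hand, GENCODE release 29, is on another build. Exons were therefore matched to it by gene identifier, exon length and the spacing to at least 1 other listed exon of the gene, and no coordinate of it is given. This and the Benjamini-Hochberg adjustment were tested on simulated data. Python 3.11.15, pandas 2.3.3 and matplotlib 3.10.9 were used. Alternatives covered the size and FDR limits, exons in several rows, and membership.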

Additional observations from a re-analysis of the deposited data

How the results depend on the processing

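No paired analysis was possible because each group is 1 library, and for the same reason no replicate could be left out. Of the alternative values, 29 stayed within 1.5 times of the reported one (counts) or within its 95% binomial interval. Among them were all those on the counts of called SLC events: 0 in RS2 throughout, and 5 to 10 in RS3 against 7. The binomial interval treats its units as independent, though all come from 1 pair of libraries per table. For the share of SLC genes called in RS3 it ran from 1.12% to 6.48%. A fall from 3.03% to 2.02% therefore counted as unchanged. Stricter limits and subsets of the events cannot add calls. Under them the 0 in RS2, by event and by gene, was therefore fixed in advance and shows no stability. The 10 in RS3 came from current gene symbols, which add the gene listed as PQLC1. With an unadjusted p under 0.05 in place of the FDR, the share of SLC genes with an event of at least 0.1 was 9.09% in RS2 against 0%, and 14.1% in RS3 against 3.03%. The share of all gene symbols under this looser rule is not given here, so these shares cannot be set against the background. By the same rule 3 exons passed in both tables, which share the comparator library, against 0. The mean in place of the median gave -0.00965 in RS2, the opposite sign, and -0.0230 in RS3, and the cause was not tested. With a minimum difference of 0.2, 2 events of other transporters in RS3 were left of 4. Leaving out the 8 symbols that are not carriers, chosen after seeing the data, kept the counts at 0 and 7. Read depth is unknown, so no interval is given for a single difference.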

Other observations

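Some genes now carry an SLC symbol but were listed under an older name, and they are not among the exons described above. By the current symbols of their gene identifiers 7 symbols would join in RS2 and 8 in RS3, while 2 would leave in RS2 and 3 in RS3, among them SLC9A3R1 and SLC9A3R2, now NHERF1 and NHERF2. One of those joining, PQLC1 (now SLC66A2), a PQ-loop repeat gene, had 3 called events in RS3. Inclusion of its 54-base exon on chromosome 18 (77693969 to 77694022) fell in 2 RS3 rows of the authors' deposited table, with differences of -0.242 (FDR 0.000527) and -0.172 (FDR 0.0019). A 217-base exon (77679184 to 77679400) fell by 0.174 in RS3 (FDR 0.000693), again from the authors' deposited table. With these the count of called events in RS3 was 10 over 825 rows, beside 411 of 42518 rows (0.967%) over all genes. The added calls all came from PQLC1.

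Exons of at most 27 bases were as rare among the carriers as elsewhere: 7 of 746 (0.938%), beside 1.03% of all exons. A 24-base coding exon of SLC38A10, an amino acid carrier-like gene, was at 0.061 in RS3 (p = 0.0166, FDR 0.375) in the authors' deposited table. A 26-base coding exon of SLC25A42, the mitochondrial coenzyme A carrier, was at -0.042 in RS3 (p = 0.0496, FDR 0.654) and -0.002 in RS2 in the authors' deposited table. An 18-base coding exon of SLC25A17, a peroxisomal carrier, was at 0.005 in both tables, and a 25-base exon of SLC11A2 at -0.013 in RS2 and 0.063 in RS3, all with an FDR of 1 in the authors' deposited table.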
